A study of Mus musculus with 14 samples.

Results

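The spleen response to imiquimod cream on the ear was described by comparing all 4 libraries labelled as imiquimod ear application with all 3 vehicle controls, 7 of the 14 libraries of the series, over every row of the deposited count table that carries a gene name. Of 22116 such rows, 15159 had enough counts to be tested. Each library was made from poly(A) RNA of the whole spleen of a wild-type female BALB/c mouse of 6 to 8 weeks. Imiquimod had been put on the ear once daily for 5 days as a 5% cream, and the controls had received petrolatum on the dorsal skin and both ears, although the design text calls them untreated. Whether 1 or both ears were treated, and the amount of cream, is not known from the sources used here. The remaining libraries, used only to test where the ear application differs, are from 4 mice with the same cream on dorsal skin (imiquimod-dorsal) and 3 mice with IL-23 injected into the ear at 1 µg per ear, 4 times over 7 days (IL-23-ear). Samples are numbered as biological replicates of 1 batch in the labels, and libraries are named here by group and number. The values of a gene are listed in the order control 2, 4 and 5 and then imiquimod-ear 1, 3, 4 and 5. Positions are those of GRCm39, the build named in the submitters' processing notes.

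Imiquimod is an agonist of Toll-like receptor 7, an endosomal sensor of single-stranded RNA that signals through MyD88 and IRF7 in plasmacytoid dendritic cells, B cells and macrophages. In the spleen, B cells activated in follicles and the marginal zone divide and differentiate into plasmablasts, which switch immunoglobulin class, expand the endoplasmic reticulum and secrete antibody. The mouse spleen also keeps blood-forming tissue in the red pulp, where granulocytes and red cells can be made. Type I and type II interferons act on nearly all of these cells by inducing a shared set of antiviral genes.

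The 7 libraries held 28354674 to 37402120 counts in rows with a gene name, and in each 16048 to 16375 genes were detected with 1 count or more. The labelled tissue was checked against Spic, the factor that defines red pulp macrophages (40.9 to 95.5 CPM over the 7 libraries), and the B cell marker Ms4a1 (567 to 635 CPM). Values are CPM, counts divided by the library total after scaling by the trimmed mean of M values (TMM). Log2 fold changes are given with their standard error (SE) and the adjusted p of edgeR's quasi-likelihood test over all tested genes. In whole tissue, fewer cells of a type and less RNA per cell cannot be told apart, which holds for every level below.

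In the spleens of ear-treated mice, genes of antibody-secreting cells, of dividing cells and of neutrophil primary granules rose and interferon-stimulated genes fell. Of 15159 genes tested, 3219 (21.2%) passed an adjusted p of 0.05, 2161 (14.3%) upward and 1058 (6.98%) downward. Changes of at least 2-fold were made by 498 of the genes that rose and 132 of those that fell. The median log2 fold change over all tested genes was 0.02. On the first principal component of the log2 CPM of all 14 libraries, which held 56.7% of the variance, imiquimod-dorsal lay between 74.11 and 91.28, imiquimod-ear between -30.98 and 4.42 and the controls between -51.68 and -33.22. On the second, with 9.8% of the variance, the 4 imiquimod-ear libraries lay at -35.99, -57.78, -25.55 and -10.19 and the other 10 between 6.39 and 21.46. Imiquimod-ear 5 was the closest of the 4 to the rest. The number of calls moved with single libraries. It was 717 up and 373 down without control 4, 827 up and 579 down without control 2, 1228 and 684 without imiquimod-ear 1, and 1250 and 726 without imiquimod-ear 3. Without imiquimod-ear 5 it was 2725 up and 2251 down, and without imiquimod-ear 4 it was 1715 up and 642 down. The calls of 659 genes that rose and 298 that fell were kept in all 7 fits that left out 1 control or imiquimod-ear library, and single genes described below are from those calls unless the loss is stated.

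**Figure D1:**
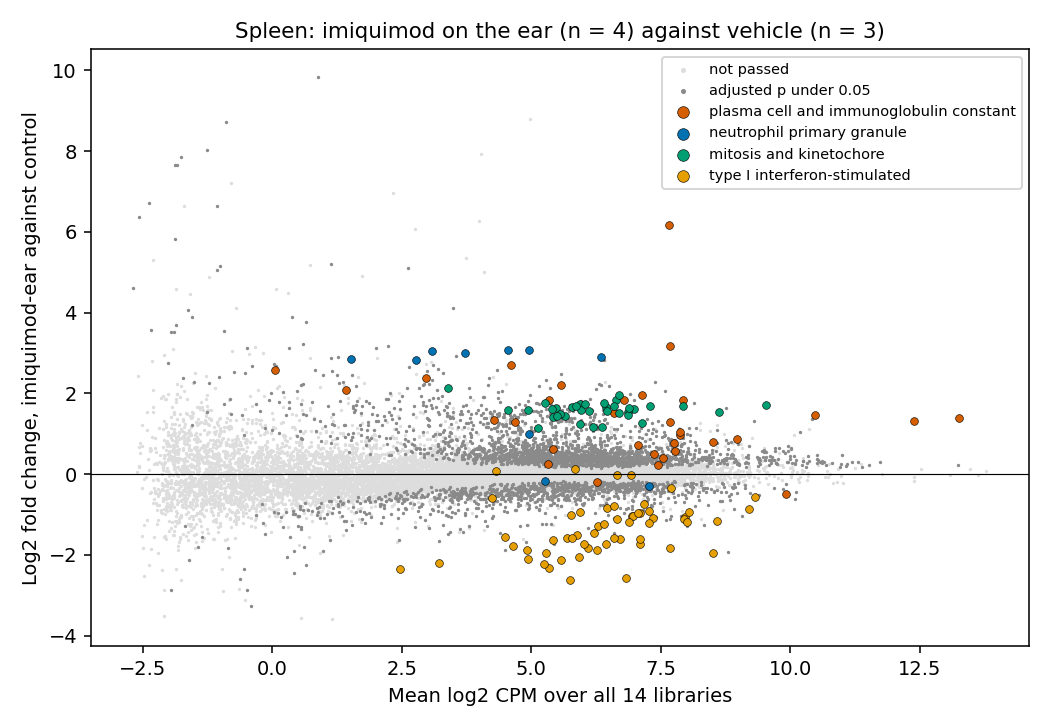
Log2 fold change of imiquimod-ear (n = 4) against control (n = 3) on the y axis against the mean log2 CPM over all 14 libraries on the x axis, 1 point per tested gene. Genes that passed are darker, and members of 4 lists are coloured. Of these lists, immunoglobulin and neutrophil primary granule genes reach highest, mitosis genes lie above 0, and type I interferon-stimulated genes lie lowest.

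Among named genes of at least 1 on the mean log2 CPM scale whose calls were kept and whose groups did not overlap, leaving aside predicted genes and variable segments, 11 of the 12 largest rises were 2 immunoglobulin constant regions, 3 other genes of B cells and plasma cells or of their secretory pathway, and 6 granule or surface genes of early granulocytes. In descending order these 11 were Ighg2c, Tmed6, Ighg2b, Elane, Prtn3, Fcnb, Ctsg, Mpo, Nuggc, Ms4a3 and Eaf2, with log2 fold changes from 6.16 to 2.70. The 12 largest falls were Ifit3b, Ifit3, Ifi213, Ifi206, Mx2, Trim30c, Ifi208, Oasl1, Irf7, Rnf213, Gbp10 and Ddx60, from -2.62 to -1.87. All of these are known as interferon-inducible genes. The rule for these rises and falls required that the groups not overlap, so their separation is not a result. Over all 15159 tested genes, all treated values lay above the controls in 2052 genes and below them in 1674. Ifit3 and Ifit3b, the Ifi200 genes Ifi206, Ifi208 and Ifi213, and the guanylate-binding proteins are close copies of each other, and the sources used here do not say how reads with several matches were counted, so the split between such copies is uncertain.

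Genes of plasma cells rose. Of 20 tested plasma cell genes, 19 rose and none fell, with a median log2 fold change of 1.29, where 14.3% of all tested genes rose. The mean of the list over the control mean was 1.36, 1.62, 1.12 and 0.84 (log2) in imiquimod-ear 1, 3, 4 and 5, against -0.02 to 0.03 in the controls, so the groups did not overlap. Jchain, which joins IgM and IgA into polymers (chromosome 5, 88667668 to 88675750, minus strand), was at 1086, 1083 and 779 CPM in the controls and 2994, 3227, 2273 and 2334 CPM in imiquimod-ear. Jchain rose by 1.46 on the log2 scale (SE 0.21, adjusted p = 0.00209). All 4 treated spleens were above all 3 controls. Fkbp11, a prolyl isomerase of the endoplasmic reticulum in secretory cells (chromosome 15, 98622244 to 98626091, minus strand), was at 2.55, 3.36 and 3.32 CPM in the controls and 15.6, 21.8, 15.1 and 11.2 CPM in imiquimod-ear. Fkbp11 rose by 2.37 on the log2 scale (SE 0.24, adjusted p = 0.000511). Sdc1, the plasma cell surface marker CD138, was at 18.5 ± 1.26 CPM (SD, n = 3) in the controls and 45.7 ± 8.86 CPM (SD, n = 4) in imiquimod-ear. Sdc1 rose by 1.30 on the log2 scale (SE 0.15, adjusted p = 0.00078). The transcription factors that direct plasma cell differentiation rose too, Prdm1 by 1.35 (SE 0.24, adjusted p = 0.00372), Xbp1 by 1.28 (SE 0.18, adjusted p = 0.00175) and Irf4 by 0.72 (SE 0.15, adjusted p = 0.00618). Tnfrsf17, the receptor BCMA that supports plasma cell survival, rose by 2.09 and Eaf2, a partner of the elongation factor ELL2, by 2.70. The member that did not pass was Cd38, at 148 ± 17.4 CPM (SD, n = 3) in the controls and 172 ± 31.8 CPM (SD, n = 4) in imiquimod-ear. Its difference was within the spread (log2 fold change 0.22, SE 0.15, adjusted p = 0.326). Leaving out control 4 left 13 of the 19 calls.

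Immunoglobulin constant regions differed by class. Of 12 tested, 9 rose and 1, Ighd, fell (median 1.35). Ighg2c (chromosome 12, 113248945 to 113252552, minus strand) was at 5.38, 8.90 and 3.99 CPM in the controls and 575, 875, 160.3 and 124 CPM in imiquimod-ear. Ighg2c rose by 6.16 on the log2 scale (SE 0.79, adjusted p = 0.00175). Imiquimod-ear 1 and 3 were well above imiquimod-ear 4 and 5. BALB/c mice carry the IgG2a allele of this locus, while the reference genome, built from C57BL/6, names it Ighg2c. Ighg2b was at 31.7, 22.2 and 26.8 CPM in the controls and 294, 429, 146 and 109.9 CPM in imiquimod-ear. Ighg2b rose by 3.18 on the log2 scale (SE 0.43, adjusted p = 0.00182). Ighg3 rose by 1.96 (SE 0.28, adjusted p = 0.00213). Ighm, the heavy chain of IgM (chromosome 12, 113382178 to 113386350, minus strand), was at 6149, 6828 and 5662 CPM in the controls and 17640.3, 18995, 13734 and 14576 CPM in imiquimod-ear (log2 fold change 1.39, SE 0.16, adjusted p = 0.00078), and the light chain gene Igkc rose by 1.32 (SE 0.17, adjusted p = 0.00113). Igha, the heavy chain of mucosal IgA, did not pass, at 93.4 ± 45.8 CPM (SD, n = 3) in the controls and 81.2 ± 18.3 CPM (SD, n = 4) in imiquimod-ear (log2 fold change -0.20, SE 0.32, adjusted p = 0.692), nor did Ighe (log2 fold change 2.57, SE 1.08, adjusted p = 0.109), which had 0 to 2.64 CPM. Ighd, which marks naive B cells, was at 1099, 1221 and 1047 CPM in the controls and 763, 694, 827 and 921 CPM in imiquimod-ear. It fell by 0.49 on the log2 scale (SE 0.09, adjusted p = 0.004). Ighg1 rose by 2.22 with 15.5, 30.9 and 10.5 CPM in the controls and 69.9, 90.4, 78.1 and 114 CPM in imiquimod-ear. This call was lost without control 2 (adjusted p = 0.0573), and that of Iglc3 without control 4 (adjusted p = 0.0529).

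The machinery that moves proteins into and out of the endoplasmic reticulum rose with the antibody genes. Of 36 tested genes of translocation and folding, 32 rose (median 0.67), of 30 genes of glycosylation and export 21 rose (median 0.47), and of 16 sensors and factors of the unfolded protein response 7 rose (median 0.39); none of the 3 lists held a gene that fell. Hsp90b1, the chaperone GRP94 (chromosome 10, 86526073 to 86541446, minus strand), was at 771, 873 and 1093 CPM in the controls and 2620.4, 3175, 1996 and 1541 CPM in imiquimod-ear. Hsp90b1 rose by 1.35 on the log2 scale (SE 0.22, adjusted p = 0.00307). Creld2, a chaperone induced by protein load (chromosome 15, 88703795 to 88710890, plus strand), was at 49.96, 59.01 and 72.8 CPM in the controls and 232, 297, 186 and 151 CPM in imiquimod-ear. Creld2 rose by 1.84 on the log2 scale (SE 0.24, adjusted p = 0.00132). The treated and control spleens did not overlap for either gene, and imiquimod-ear 5 was the lowest of the treated in both. Sec11c, a subunit of the signal peptidase, rose by 1.12, Ssr2 of the translocon-associated complex by 1.06, Rpn1 of the oligosaccharyltransferase by 0.93, the cargo receptor Lman1 by 0.90 and Edem2, which trims misfolded glycoproteins, by 0.93. Hspa5, the chaperone BiP, was at 633, 763 and 945 CPM in the controls and 1307, 1464, 1031 and 878 CPM in imiquimod-ear (log2 fold change 0.58, SE 0.17, adjusted p = 0.0282); imiquimod-ear 5 lay below control 5, and the call was lost without control 2, control 4, imiquimod-ear 1 or imiquimod-ear 3 (adjusted p 0.0892 to 0.151). Without control 2 or without control 4, 23 of the 36 folding genes and 12 of the 30 export genes passed, and 3 to 10 unfolded protein response genes rose with any 1 library left out.

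The endoplasmic reticulum stress response element, bound by ATF6 and XBP1 in the textbook account, reads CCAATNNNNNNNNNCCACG, where N is any base, and so contains a CCAAT box. It was looked for on both strands of RefSeq promoter windows, from 250 bases before to 50 after the first listed gene start (GRCm38.p6, the build of the positions printed with the sequences). It was present in 35 of 27025 promoters (0.13%), in 18 of the 11450 tested genes that have a window (0.157%), in 7 of 28 translocation and folding genes (25%) and in 2 of 18 plasma cell genes (11.1%). Stretches of 60 bases upstream of Hspa5, Hsp90b1 and Creld2 are shown because these 3 chaperones carry the element and differ in how far they rose; capitals mark the element, on the gene's own strand for Hspa5 and reversed for the other two.
Hspa5 (chr2:34772005-34772064, plus strand): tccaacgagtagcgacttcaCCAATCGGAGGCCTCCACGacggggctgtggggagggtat
Hsp90b1 (chr10:86705512-86705571, minus strand): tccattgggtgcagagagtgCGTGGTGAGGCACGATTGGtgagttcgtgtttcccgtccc
Creld2 (chr15:88819500-88819559, plus strand): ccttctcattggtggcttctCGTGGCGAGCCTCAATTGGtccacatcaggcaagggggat
A match is a description of the letters and not of binding.

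Single genes of the germinal center reaction rose, while the median of their list stayed near 0. Mybl1, a transcription factor of germinal center B cells, was at 2.44, 2.66 and 2.30 CPM in the controls and 11.9, 32.4, 7.09 and 6.39 CPM in imiquimod-ear (log2 fold change 2.55, SE 0.55, adjusted p = 0.00838), and Nuggc, a GTPase of the same cells, at 0.961, 1.12 and 0.233 CPM in the controls and 6.84, 10.1, 2.75 and 2.99 CPM in imiquimod-ear. Nuggc rose by 2.88 on the log2 scale (SE 0.60, adjusted p = 0.00634). Over the list of 16, however, 4 rose and 2 fell (median 0.03), where 14.3% of all tested genes rose and 6.98% fell. Without control 4, 2 rose and 1 fell. Bcl6, the master factor of the germinal center, was at 56.6 ± 9.71 CPM (SD, n = 3) in the controls and 52.9 ± 5.46 CPM (SD, n = 4) in imiquimod-ear. Bcl6 did not pass (log2 fold change -0.10, SE 0.15, adjusted p = 0.676). S1pr2 and Mef2b also rose, by 1.57 and 2.13, and both calls were lost without control 2 or control 4 (adjusted p 0.0505 to 0.0641). Ccnd2 and Cxcr5 fell, by 0.49 and 0.44 on the log2 scale, and the call of Cxcr5 was lost without control 4 (adjusted p = 0.0879).

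Genes of B cell identity moved by small amounts. Of 20 tested, 6 fell and 1 rose (median -0.17), where 6.98% of all tested genes fell. Ebf1, a factor that holds B cell identity, was at 103, 106 and 101 CPM in the controls and 66.3, 73.9, 77.7 and 89.2 CPM in imiquimod-ear (log2 fold change -0.43, SE 0.08, adjusted p = 0.00498), and the inhibitory receptor Cd22 fell by 0.31 on the log2 scale (SE 0.08, adjusted p = 0.0134). Cd79a was at 767 ± 34.04 CPM (SD, n = 3) in the controls and 716 ± 51.5 CPM (SD, n = 4) in imiquimod-ear (log2 fold change -0.10, SE 0.08, adjusted p = 0.396) and did not pass. Pax5, Bach2 and Cr2 had log2 fold changes of -0.31, -0.38 and -0.55, but these calls were lost without control 4 (adjusted p 0.0529 to 0.0721), and the number that fell was 2 to 9 with any 1 library left out. Of 12 marginal zone and B1 cell genes, 2 rose and 4 fell, and 1 fell where imiquimod-ear 1, 3 or 4 or control 2 or 4 was left out. Zbtb32, a repressor in memory and B1 cells, rose by 1.11 on the log2 scale (SE 0.14, adjusted p = 0.001) and Bhlhe41, a factor of B1 cells, by 0.68 on the log2 scale (SE 0.13, adjusted p = 0.00476). The chemokine receptor Cxcr3, which follows interferon-induced chemokines, rose by 1.08, while Tnfsf13b, the B cell survival factor BAFF, was at 23.9, 22.6 and 18.3 CPM in the controls and 8.27, 8.22, 14.4 and 17.3 CPM in imiquimod-ear, a fall (log2 fold change -0.84, SE 0.22, adjusted p = 0.0166) that was lost without control 2 or control 4 (adjusted p = 0.0693 and 0.064).

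**Figure D2:**
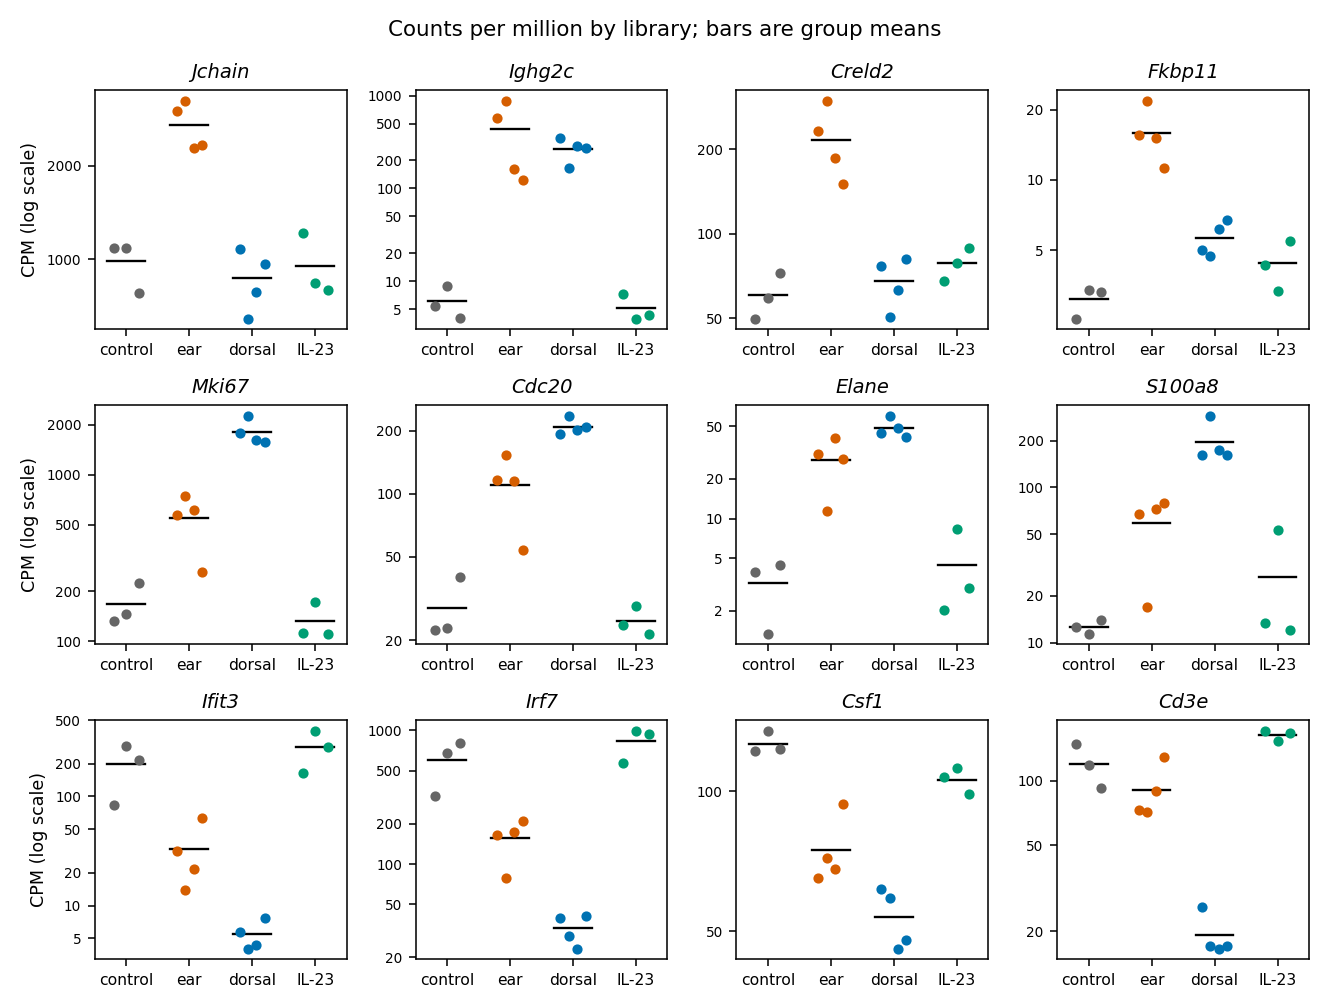
CPM (y axis, log scale, each panel with its own range) of 12 genes in each library of the 4 groups on the x axis, with 1 point per library and a bar at the group mean. The 4 imiquimod-ear points lie above all 3 control points for Jchain, Ighg2c, Creld2, Fkbp11, Mki67, Cdc20, Elane and S100a8 and below them for Ifit3, Irf7 and Csf1, while for Cd3e they overlap.

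Genes of cell division rose, and all 36 tested genes of mitosis and the kinetochore passed (median 1.60). The mean of the list was 1.69, 2.05, 1.77 and 0.70 above the control mean (log2) in imiquimod-ear 1, 3, 4 and 5. The controls themselves ranged from -0.32 in control 2 to 0.52 in control 5, so imiquimod-ear 5 exceeded the highest control by less than the controls differed from each other. Mki67, the marker of cycling cells (chromosome 7, 135291513 to 135318299, minus strand), was at 132, 147 and 224 CPM in the controls and 575, 749, 615 and 262 CPM in imiquimod-ear. Mki67 rose by 1.72 on the log2 scale (SE 0.33, adjusted p = 0.00528). Cdc20, the activator of the anaphase-promoting complex (chromosome 4, 118290098 to 118294610, minus strand), was at 22.3, 22.98 and 39.96 CPM in the controls and 117, 153, 116 and 54.2 CPM in imiquimod-ear. Cdc20 rose by 1.95 on the log2 scale (SE 0.31, adjusted p = 0.00296). In both genes imiquimod-ear 5 was the lowest of the treated and control 5 the highest of the controls, and the groups did not overlap. The mitotic cyclin Ccnb1 rose by 1.85 (SE 0.36, adjusted p = 0.00568), its kinase Cdk1 by 1.68 (SE 0.33, adjusted p = 0.00561), and the topoisomerase Top2a by 1.55 (SE 0.30, adjusted p = 0.00568). At least 33 of the 36 passed whichever of the 7 libraries was left out.

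Genes of DNA replication rose less evenly. Of 36 tested, 33 passed upward (median 0.99), but 6 did so without control 2 or without control 4, 18 without imiquimod-ear 1 and 16 without imiquimod-ear 3. The list mean was 1.22, 1.36, 1.11 and 0.27 in imiquimod-ear 1, 3, 4 and 5 and 0.51 in control 5, which therefore lay above imiquimod-ear 5. Rrm2, a subunit of ribonucleotide reductase, was at 38.2, 51.9 and 92.8 CPM in the controls and 222, 276, 233 and 92.05 CPM in imiquimod-ear (log2 fold change 1.75, SE 0.37, adjusted p = 0.00752), with imiquimod-ear 5 just below control 5. Tyms, which makes thymidylate, was at 11.1, 14.5 and 25.04 CPM in the controls and 54.4, 63.4, 52.5 and 25.4 CPM in imiquimod-ear (log2 fold change 1.53, SE 0.30, adjusted p = 0.00602), with imiquimod-ear 5 just above control 5. Mcm2, of the replicative helicase, and Pcna, the sliding clamp, had log2 fold changes of 0.88 and 0.79; both calls were lost without control 2, control 4, imiquimod-ear 1 or imiquimod-ear 3 (adjusted p 0.068 to 0.128). Of 22 genes of G1 cyclins and E2F factors, 11 rose and 1, Ccnd2, fell (median 0.38); Foxm1, which drives mitotic genes, rose by 1.30 on the log2 scale (SE 0.26, adjusted p = 0.00568). Of these 22, 4 rose without control 2, 3 without control 4 and 7 without imiquimod-ear 3.

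Promoter motifs known from cell cycle genes were counted in the same windows. The cell cycle homology region TTTGAA was present, on either strand, in 22 of 29 mitosis genes (75.9%), against 18.1% of all 27025 promoters and 12.4% of the 11450 of tested genes, and in 5 of 30 replication genes (16.7%). The CCAAT box was present in 72.4% of the mitosis genes, 66.7% of the replication genes and 37.9% of all promoters. The 60-base stretches of Mki67, Cdc20 and Cdk1 are shown because the rises of these genes are given above. Capitals mark the upstream copy of the region nearest the start, and a further copy in the Mki67 stretch is left in lower case.
Mki67 (chr7:135716445-135716504, minus strand): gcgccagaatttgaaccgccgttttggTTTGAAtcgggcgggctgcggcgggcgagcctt
Cdc20 (chr4:118437344-118437403, minus strand): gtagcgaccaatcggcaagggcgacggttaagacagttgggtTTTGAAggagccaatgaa
Cdk1 (chr10:69352913-69352972, minus strand): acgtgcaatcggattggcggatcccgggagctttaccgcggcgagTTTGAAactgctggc
In Mki67 the marked copy ends 93 bases before the gene start, in Cdc20 13 and in Cdk1 10 bases before it.

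Interferon-stimulated genes fell. Of 57 tested type I interferon-stimulated genes, 49 fell and none rose, with a median of -1.29, where 6.98% of all tested genes fell. The list mean was -1.19, -1.89, -1.36 and -0.88 in imiquimod-ear 1, 3, 4 and 5. The controls were spread from -0.62 in control 2 to 0.45 in control 4, so the distance from control 2 to imiquimod-ear 5 was smaller than the spread of the controls. Ifit3, which amplifies antiviral signaling (chromosome 19, 34560899 to 34566443, plus strand), was at 82.8, 289 and 216 CPM in the controls and 31.6, 13.9, 21.7 and 64.03 CPM in imiquimod-ear. Ifit3 fell by 2.58 on the log2 scale (SE 0.54, adjusted p = 0.00777). Control 2 lay between the treated spleens and the other controls. Irf7, the factor that carries the Toll-like receptor 7 signal to the interferon genes (chromosome 7, 140842619 to 140846398, minus strand), was at 322, 676 and 811 CPM in the controls and 164, 79.1, 173 and 211 CPM in imiquimod-ear. Irf7 fell by 1.94 on the log2 scale (SE 0.37, adjusted p = 0.0054). Ifi206, an Ifi200 family member (chromosome 1, 173296051 to 173318873, minus strand), was at 39.8, 95.9 and 77.4 CPM in the controls and 16.4, 9.14, 13.2 and 18.01 CPM in imiquimod-ear. Ifi206 fell by 2.32 on the log2 scale (SE 0.31, adjusted p = 0.00175). The dynamin-like antiviral protein Mx2 fell by 2.23 on the log2 scale (SE 0.42, adjusted p = 0.00527), the helicase-related Ddx60 by 1.87 on the log2 scale (SE 0.29, adjusted p = 0.00254) and the ubiquitin ligase Rnf213 by 1.92 on the log2 scale (SE 0.27, adjusted p = 0.00188). Isg15, a ubiquitin-like modifier in the same list, did not pass (75.99, 197 and 184 CPM in the controls and 68.7, 38.2, 104 and 87.6 CPM in imiquimod-ear; log2 fold change -1.03, SE 0.40, adjusted p = 0.0886), and imiquimod-ear 4 lay above control 2. Without control 4, 34 of the 57 passed downward; the call of Ifit1 was then lost (adjusted p = 0.0539).

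Of 26 genes of the interferon gamma response, 17 fell (median -0.78). Without control 4 the number was 6, and with any other library left out it was 12 to 18. Gbp10, a guanylate-binding protein (chromosome 5, 105362773 to 105412666, minus strand), was at 24.4, 48.9 and 49.96 CPM in the controls and 14.7, 10.1, 9.22 and 10.5 CPM in imiquimod-ear. Gbp10 fell by 1.88 on the log2 scale (SE 0.38, adjusted p = 0.00636). Irf1 and Cxcl9 did not pass (log2 fold change -0.36, SE 0.20, adjusted p = 0.211 and log2 fold change -0.35, SE 0.36, adjusted p = 0.511). Of the interferon ligands, Ifnb1, Ifna4, Ifnl2 and Ifnl3 had 0 counts in all 7 libraries, which allows up to 3 counts or 0.0802 to 0.1058 CPM in each. Of 11 tested ligand and receptor genes, 1, the kinase Jak1, fell (log2 fold change -0.31, SE 0.07, adjusted p = 0.00904), and the receptor subunit Ifnar1 was at 91.6 ± 9.18 CPM (SD, n = 3) in the controls and 86.7 ± 5.92 CPM (SD, n = 4) in imiquimod-ear. Ifnar1 did not pass (log2 fold change -0.08, SE 0.08, adjusted p = 0.493). The receptor subunit of type III interferon, Ifnlr1, was not in this list and rose by 1.88, as given under other observations. Tlr7, the receptor of imiquimod (chromosome X, 166086758 to 166113605, minus strand), was at 62.8, 108 and 96.3 CPM in the controls and 61.3, 48.8, 44.2 and 55.96 CPM in imiquimod-ear. Tlr7 fell by 0.76 on the log2 scale (SE 0.17, adjusted p = 0.00888). All 4 treated spleens were below the 3 controls, but imiquimod-ear 1 and control 2 nearly met, and the call was lost without control 4 (adjusted p = 0.0513). In the pathway list of 21, Tlr7, Tlr3, Tlr13 and Irak2 fell and the chaperone Hsp90b1, which folds these receptors and is also counted above, rose. Of this list, 2 genes fell without control 4 and 3 without imiquimod-ear 3 or imiquimod-ear 4. A call besides that of Tlr7 was thus also lost. Myd88 was at 58.7 ± 6.68 CPM (SD, n = 3) in the controls and 55.3 ± 2.28 CPM (SD, n = 4) in imiquimod-ear. Myd88 did not pass (log2 fold change -0.09, SE 0.10, adjusted p = 0.572).

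The interferon-stimulated response element GAAANNGAAA was present on either strand in 22 of 43 type I interferon-stimulated genes with a promoter window (51.2%) and in 11 of 15 interferon gamma response genes (73.3%), against 3.49% of all 27025 promoters and 3.21% of the tested genes. It was present in 2 of 29 mitosis genes and in none of 30 replication genes. The stretches of Ifit3, Ifi206 and Ifi208 are shown because these genes are among the 12 largest falls; capitals mark the element, reversed in Ifit3.
Ifit3 (chr19:34583382-34583441, plus strand): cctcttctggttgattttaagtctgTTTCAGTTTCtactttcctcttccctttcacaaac
Ifi206 (chr1:173491324-173491383, minus strand): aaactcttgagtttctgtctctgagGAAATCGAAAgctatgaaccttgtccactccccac
Ifi208 (chr1:173673582-173673641, plus strand): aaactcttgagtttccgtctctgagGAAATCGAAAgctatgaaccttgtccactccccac
The stretches of Ifi206 and Ifi208 differ by 1 base of 60.

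Genes of the neutrophil primary granule rose, while granulocyte and progenitor factors did not as a list. Of 10 tested primary granule genes, made at the promyelocyte stage, 8 rose (median 2.87). Elane, neutrophil elastase (chromosome 10, 79722081 to 79724051, plus strand), was at 3.92, 1.34 and 4.48 CPM in the controls and 30.9, 11.5, 40.51 and 28.49 CPM in imiquimod-ear. Elane rose by 3.08 on the log2 scale (SE 0.57, adjusted p = 0.00499). Mpo, myeloperoxidase (chromosome 11, 87684407 to 87695239, plus strand), was at 14.3, 7.07 and 16.3 CPM in the controls and 105, 39.5, 133 and 96.6 CPM in imiquimod-ear. Mpo rose by 2.89 on the log2 scale (SE 0.57, adjusted p = 0.00629). In both, imiquimod-ear 3 was the lowest of the treated spleens. The proteases Prtn3 and Ctsg rose by 3.07 and 3.00, the lectin Fcnb by 3.05 and Ms4a3, a marker of granulocyte and monocyte progenitors, by 2.83. Prss57 rose by 2.86, but the call did not hold where control 2, control 4, imiquimod-ear 1 or imiquimod-ear 4 was left out (adjusted p 0.0643 to 0.135). Of 20 granulocyte and progenitor factors, 2 rose and 0 fell (median -0.14), where 14.3% of all tested genes rose. With 1 library left out, 0 to 2 rose and 0 to 3 fell. The mean of that list was 0.08, -0.15, -0.08 and 0.16 (log2) in imiquimod-ear 1, 3, 4 and 5, against -0.13 to 0.09 in the controls.

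Of 13 secondary and tertiary granule genes, which are made later, 6 rose (median 1.53), but none did without control 4 or without imiquimod-ear 1, and 1 to 3 without control 2, control 5, imiquimod-ear 4 or imiquimod-ear 5. Ltf, lactoferrin, was at 9.02, 7.10 and 19.1 CPM in the controls and 62.2, 15.3, 71.4 and 74.1 CPM in imiquimod-ear (log2 fold change 2.24, SE 0.71, adjusted p = 0.0436), with imiquimod-ear 3 below control 5. Of 24 mature neutrophil genes, 4 rose and 1 fell (median 0.46), where 14.3% of all tested genes rose and 6.98% fell, so these counts are near the shares over all genes. S100a8, a subunit of calprotectin (chromosome 3, 90567118 to 90578128, plus strand), was at 12.6, 11.5 and 13.96 CPM in the controls and 67.4, 16.9, 73.1 and 78.9 CPM in imiquimod-ear. S100a8 rose by 2.22 on the log2 scale (SE 0.61, adjusted p = 0.025). It did not pass where any 1 of the 3 controls or imiquimod-ear 1 was left out (adjusted p 0.0582 to 0.1). The receptor Csf3r was at 18.7 ± 1.58 CPM (SD, n = 3) in the controls and 22.3 ± 7.21 CPM (SD, n = 4) in imiquimod-ear (log2 fold change 0.26, SE 0.22, adjusted p = 0.436) and did not pass, and Slfn4, which fell (log2 fold change -1.73, SE 0.40, adjusted p = 0.0115; adjusted p = 0.0565 without control 4), is also interferon-inducible. Without control 4 no mature neutrophil gene passed in either direction, and without control 2 none rose; 2 rose without imiquimod-ear 1. Of 20 monocyte genes, 1 rose and 3 fell, and without control 2 1 rose and none fell. F13a1, a transglutaminase of monocytes and platelets, was at 6.24, 5.82 and 6.37 CPM in the controls and 18.2, 10.1, 22.4 and 19.5 CPM in imiquimod-ear (log2 fold change 1.51, SE 0.28, adjusted p = 0.00427), and Ly6c2 at 98.8 ± 33.1 CPM (SD, n = 3) in the controls and 107 ± 18.4 CPM (SD, n = 4) in imiquimod-ear. Ly6c2 did not pass (log2 fold change 0.11, SE 0.21, adjusted p = 0.734). Of 18 eosinophil, basophil and mast cell genes 1 rose.

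Red cell genes varied between the treated spleens more than between the groups. None of 36 erythroid genes passed with edgeR (median 0.88; 1 with an unadjusted p under 0.05, 0 with DESeq2 and 0 with limma-voom). Their mean over the control mean was 0.61, -0.65, 1.82 and 0.20 (log2) in imiquimod-ear 1, 3, 4 and 5. The controls lay between -0.16 and 0.14, so imiquimod-ear 4 was the highest and imiquimod-ear 3 the lowest of all 7, and the treated group enclosed the controls. Hbb-bs, a beta globin, was at 12618, 6142 and 3855 CPM in the controls and 4849, 2420.0, 16226 and 6216 CPM in imiquimod-ear. Hbb-bs did not pass (log2 fold change -0.02, SE 0.62, adjusted p = 0.983). None of 18 megakaryocyte and platelet genes passed (median 0.69; 6 with an unadjusted p under 0.05, 3 with DESeq2 and 0 with limma-voom), and control 4, at -0.65, stood below the other controls at 0.35 and 0.30.

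Of 24 red pulp macrophage genes, 6 fell (median -0.36), where 6.98% of all tested genes fell. Siglec1, the sialoadhesin of marginal metallophilic macrophages, which interferon also induces (chromosome 2, 130911140 to 130928685, minus strand), was at 131, 147 and 170.2 CPM in the controls and 85.8, 57.9, 69.7 and 68.1 CPM in imiquimod-ear. Siglec1 fell by 1.09 on the log2 scale (SE 0.19, adjusted p = 0.00352). Spic and Hmox1, of red pulp macrophages and heme breakdown, had log2 fold changes of -0.38 (SE 0.23, adjusted p = 0.257) and -0.37 (SE 0.24, adjusted p = 0.3) and did not pass. The list had 11 falls without imiquimod-ear 5 and 1 to 6 without any other library, with 1 without control 4 and 2 without imiquimod-ear 3 or imiquimod-ear 4. Csf1, the macrophage growth factor (chromosome 3, 107648364 to 107667806, minus strand), was at 122, 135 and 123 CPM in the controls and 65.1, 71.7, 68.1 and 93.8 CPM in imiquimod-ear (log2 fold change -0.76, SE 0.13, adjusted p = 0.00296), and it was the member that passed among 31 tested cytokine and chemokine genes. Tnf, Il1b and Il6 did not pass (log2 fold change -0.57, SE 0.32, adjusted p = 0.216, log2 fold change 0.28, SE 0.35, adjusted p = 0.604 and log2 fold change 0.11, SE 0.71, adjusted p = 0.922), and Il17a had 0 counts in all 7 libraries.

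Levels of T cell genes were lower than in any control in 3 of the 4 treated spleens. Cd3e, of the T cell receptor complex (chromosome 9, 44910037 to 44920925, minus strand), was at 148, 119 and 92.6 CPM in the controls and 72.9, 71.2, 89.8 and 129 CPM in imiquimod-ear. Cd3e did not pass (log2 fold change -0.40, SE 0.22, adjusted p = 0.215). Imiquimod-ear 1, 3 and 4 were below the lowest control, and imiquimod-ear 5 lay among the controls. Without imiquimod-ear 5 the log2 fold change was -0.66 and passed (adjusted p = 0.019). Over 25 tested T cell genes 4 fell (median -0.36), 19 did without imiquimod-ear 5, 7 without control 5 and 0 to 2 without any other library; all 25 fitted log2 fold changes were below 0, from -0.96 to -0.10. Il7r, the receptor of the survival cytokine IL-7, was at 217, 179.8 and 134 CPM in the controls and 76.4, 74.7, 84.7 and 127 CPM in imiquimod-ear. Il7r fell by 0.96 on the log2 scale (SE 0.22, adjusted p = 0.0102), a call that did not hold where control 2 was left out (adjusted p = 0.052). Of 16 regulatory T cell and checkpoint genes 3 rose, 1 or 2 with any 1 library left out, near the 14.3% of all tested genes that rose. Tigit, an inhibitory receptor of activated and regulatory T cells, was at 2.96, 3.42 and 3.76 CPM in the controls and 10.6, 13.9, 6.44 and 6.24 CPM in imiquimod-ear (log2 fold change 1.46, SE 0.31, adjusted p = 0.00629), while Foxp3 was at 12.7 ± 3.23 CPM (SD, n = 3) in the controls and 18 ± 4.26 CPM (SD, n = 4) in imiquimod-ear. Foxp3 did not pass (log2 fold change 0.51, SE 0.26, adjusted p = 0.183). Of 22 NK and cytotoxic genes 4 fell, 12 without imiquimod-ear 5 and 0 to 2 without any other library. Of 20 conventional dendritic cell genes 2 fell, 11 without imiquimod-ear 5, 5 without control 5 and none without any other library. Over all tested genes 6.98% fell, and the number that fell went from 1058 to 2251 without imiquimod-ear 5. Of 14 plasmacytoid dendritic cell genes 3 fell and 11 did not pass (median -0.25, from -1.08 to 0.31). With any 1 library left out, 3 or 4 fell. Siglech, a receptor of these cells, was at 15.4, 15.3 and 14.5 CPM in the controls and 9.48, 6.01, 8.77 and 10.1 CPM in imiquimod-ear. Siglech fell by 0.81 on the log2 scale (SE 0.17, adjusted p = 0.00679). Of 19 genes of MHC class I presentation 5 fell, of 12 of class II 3 fell, and of 25 stromal and endothelial genes 6 fell; H2-T23, a class Ib molecule, fell by 0.63 on the log2 scale (SE 0.11, adjusted p = 0.00296), and H2-Oa, which tempers class II loading, by 0.52 on the log2 scale (SE 0.10, adjusted p = 0.0046). With 1 library left out, between 1 and 6 class I, 2 and 4 class II and 1 and 9 stromal genes fell.

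Genes from outside the spleen did not move with the treatment as a list. None of 8 pancreas genes passed (0 with an unadjusted p under 0.05, 0 with DESeq2 and 0 with limma-voom), with summed CPM of 9.98 to 13.8 in the controls and 6.95 to 13.5 in the treated. Of 12 adipose and mesothelium genes 1, Adipoq, passed (log2 fold change -3.26, SE 1.06, adjusted p = 0.0451), with 0.104, 1.504 and 4.33 CPM in the controls and 0.0528, 0, 0.168 and 0.578 CPM in imiquimod-ear. Its level stood apart in control 5, and without that library the log2 fold change was -1.96 (adjusted p = 0.216). The call was also lost without control 4 or imiquimod-ear 1, 3 or 4 (adjusted p 0.0834 to 0.111). The summed CPM of this list ran from 20.7 to 76.2 in the controls and from 17.2 to 65.9 in the treated spleens. Its part in other results was not tested.

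Genes of protein synthesis and energy metabolism rose by small amounts. Over all tested genes 14.3% rose and 6.98% fell. Of 36 tested ribosomal protein genes 34 rose, with a median of 0.31, and Rplp0, of the ribosomal stalk, was at 969.6, 967 and 1082 CPM in the controls and 1417, 1489.9, 1407 and 1208 CPM in imiquimod-ear. Rplp0 rose by 0.46 on the log2 scale (SE 0.07, adjusted p = 0.00258). Of 27 nuclear genes of the respiratory chain 25 rose (median 0.49), among them Cox7c, by 0.61 on the log2 scale (SE 0.13, adjusted p = 0.00683), and of 13 mitochondrially encoded genes 7 rose (median 0.19). Of 25 proteasome genes 18 rose (median 0.36) and of 21 cholesterol synthesis genes 7 rose (median 0.34). Psmb7, a catalytic subunit of the proteasome, was at 91.4, 93.5 and 116 CPM in the controls and 167, 172, 143 and 121 CPM in imiquimod-ear. Psmb7 rose by 0.59 on the log2 scale (SE 0.12, adjusted p = 0.00553). These counts depended on single controls. Without control 4 they were 13 ribosomal, 12 respiratory, 2 mitochondrial, 1 proteasome and 1 cholesterol gene, and without control 2 they were 18, 12, 3, 1 and 3. Without imiquimod-ear 1 or imiquimod-ear 3, 5 proteasome and 2 cholesterol genes rose, without control 5 2 cholesterol and 2 mitochondrial genes, and without imiquimod-ear 4 9 proteasome genes. Of 24 immediate early and heat shock genes, which respond to tissue handling, 1 rose and 1 fell.

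**Figure D3:**
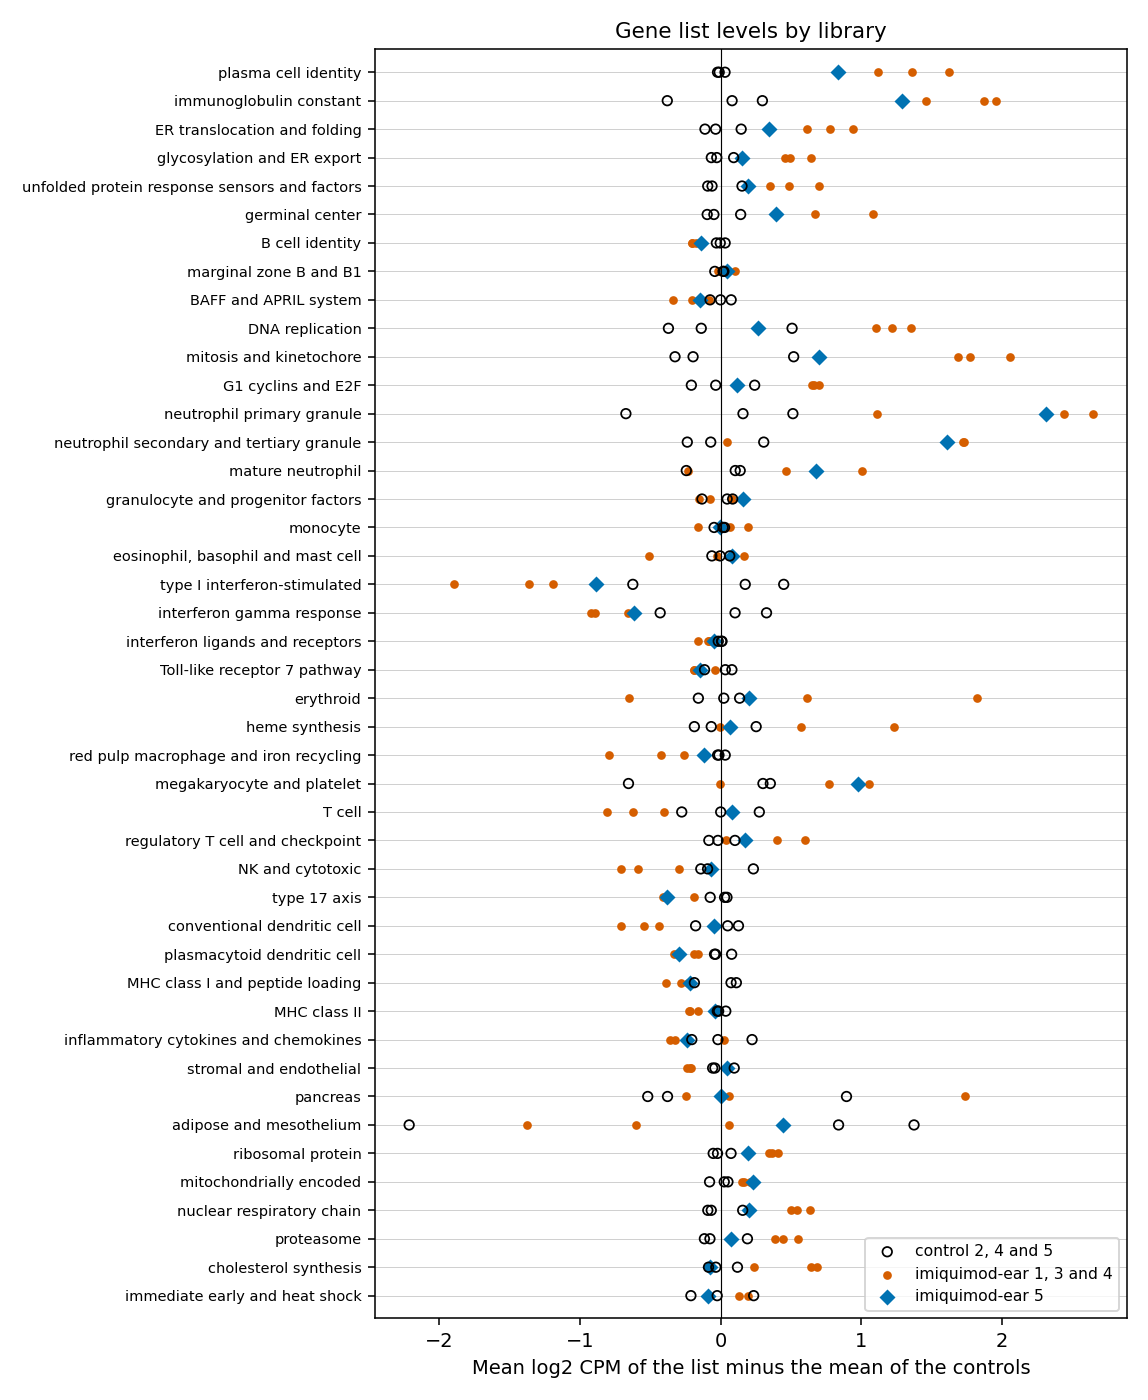
Mean log2 CPM of the tested members of each list minus the mean of the 3 controls (x axis, log2) for each of the 7 libraries, with 1 row per list. Controls are open points, imiquimod-ear 1, 3 and 4 are filled points, and imiquimod-ear 5 is marked separately. The treated points lie to the right of all control points for plasma cell and primary granule genes and to the left for both interferon lists, and imiquimod-ear 5 lies among the controls for DNA replication, T cell, proteasome and cholesterol genes.

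Imiquimod-ear 5 was described with the genes called without it, a set that its own values did not choose, although the controls are shared. For 2409 of 2725 genes that rose in the other 3 treated spleens (88.4%), imiquimod-ear 5 was on the same side of the control mean, and for 1524 (55.9%) it was above the highest control. Its median difference from the control mean was 0.18, against 0.54 in the other 3. The values of the other 3 chose the set, which by itself raises their distance from the controls. The gaps between them and imiquimod-ear 5, here and by gene group below, therefore cannot show a weaker response on their own. For 2251 genes that fell, it was on the same side for 1845 (82%) and below the lowest control for 1242 (55.2%), with a median of -0.15 against -0.47. The distance from the controls differed by gene group. All 18 plasma cell genes and all 9 immunoglobulin genes called without it were above the control range in imiquimod-ear 5, with medians of 0.91 and 1.08 against 1.41 and 1.43 in the others. All 8 primary granule genes were above it as well, with a median of 3.10 against 2.81. Of 49 interferon-stimulated genes 48 were below the control range, with -0.90 against -1.73. By contrast, 5 of 34 DNA replication genes, 2 of 24 proteasome genes and 3 of 12 cholesterol genes were above the control range, and 2 of 19 T cell genes and 3 of 12 NK genes were below it. For the T cell genes the median of imiquimod-ear 5 was 0.12 against -0.58 in the other 3.

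**Figure D4:**
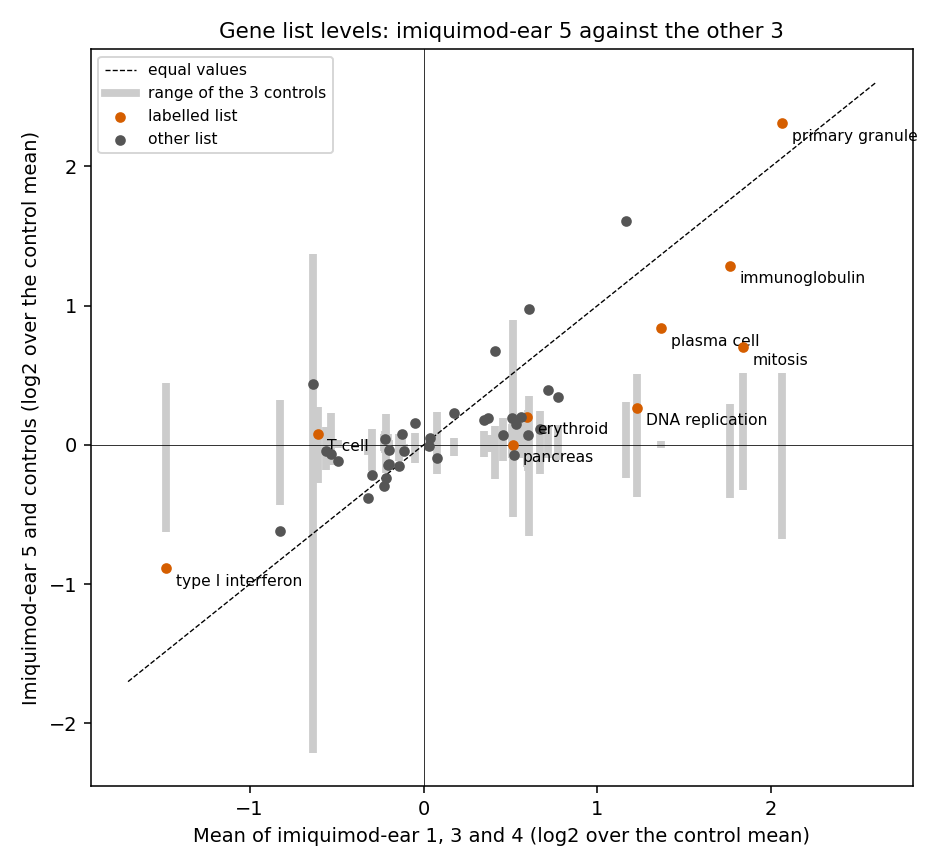
Mean level of each list over the control mean (log2) in imiquimod-ear 5 on the y axis against the mean of imiquimod-ear 1, 3 and 4 on the x axis, with 1 point per list and the line of equal values. Grey bands span the 3 controls of each list on the y axis. Primary granule genes lie above the line, plasma cell, immunoglobulin and mitosis genes lie below it but above their control range, and DNA replication and T cell genes lie inside their control range.

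Ear and dorsal application of the same cream differed in many genes, and 1 library of the dorsal group stood apart: imiquimod-dorsal 4 had a mean of pancreas genes 7.66 (log2) above the controls, against -0.38 to -0.13 in imiquimod-dorsal 2, 3 and 5. Against imiquimod-dorsal, 7237 of 15159 genes differed (47.7%), 3528 higher (23.3%) and 3709 lower (24.5%) in imiquimod-ear, and without imiquimod-dorsal 4 these were 3096 and 3378. T cell genes were higher after ear application in 25 of 25 tested (median 2.15), with Cd3e at 90.8 ± 27 CPM (SD, n = 4) in imiquimod-ear and 19.2 ± 4.53 CPM (SD, n = 4) in imiquimod-dorsal (log2 fold change 2.24, SE 0.22, adjusted p = 8.19e-06). Erythroid genes were lower in 35 of 36 (median -2.95) and mitosis genes in 34 of 36 (-1.29), with Mki67 at 550.2 ± 206 CPM (SD, n = 4) in imiquimod-ear and 1809 ± 309 CPM (SD, n = 4) in imiquimod-dorsal (log2 fold change -1.72, SE 0.29, adjusted p = 0.000531). Type I interferon-stimulated genes were higher after ear application in 41 of 57 and lower in 1 (0.99). Plasma cell genes were higher in 15 of 20 and lower in 2 (1.35), and Jchain was at 2707 ± 476 CPM (SD, n = 4) in imiquimod-ear and 866 ± 191 CPM (SD, n = 4) in imiquimod-dorsal (log2 fold change 1.64, SE 0.20, adjusted p = 3.13e-05). Of 12 immunoglobulin constant regions, 6 were higher and none lower (0.66). The switched heavy chains Ighg2c and Ighg2b were not among those that passed: Ighg2c was at 434 ± 358 CPM (SD, n = 4) in imiquimod-ear and 268 ± 76.7 CPM (SD, n = 4) in imiquimod-dorsal (log2 fold change 0.69, SE 0.55, adjusted p = 0.317) and Ighg2b at 245 ± 146 CPM (SD, n = 4) in imiquimod-ear and 437 ± 78.9 CPM (SD, n = 4) in imiquimod-dorsal (log2 fold change -0.84, SE 0.35, adjusted p = 0.0697). Of the 10 primary granule genes 1 was lower and none higher, with Elane at 27.9 ± 12.1 CPM (SD, n = 4) in imiquimod-ear and 48.7 ± 8.05 CPM (SD, n = 4) in imiquimod-dorsal (log2 fold change -0.81, SE 0.45, adjusted p = 0.164), whereas 19 of 24 mature neutrophil genes were lower in imiquimod-ear (-1.36).

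Against IL-23 injected into the ear, imiquimod on the ear gave higher levels of plasma cell and cell division genes and lower levels of interferon-stimulated and T cell genes. Of 15159 genes 2623 differed (17.3%), 1553 higher (10.2%) and 1070 lower (7.06%) in imiquimod-ear. Without IL-23-ear 1 or IL-23-ear 3 these were 694 and 636 or 646 and 471, without IL-23-ear 2 they were 976 and 694, and without imiquimod-ear 5 they were 2402 and 2058. Without imiquimod-ear 1 they were 826 and 573, without imiquimod-ear 3 they were 974 and 679, and 663 were lower without imiquimod-ear 4. Plasma cell genes were higher in imiquimod-ear in 18 of 20 (median 1.41), mitosis genes in 36 of 36 (1.85) and DNA replication genes in 33 of 36 (1.09). Ighg2c was at 434 ± 358 CPM (SD, n = 4) in imiquimod-ear and 5.19 ± 1.84 CPM (SD, n = 3) in IL-23-ear (log2 fold change 6.38, SE 0.80, adjusted p = 0.00115). Type I interferon-stimulated genes were lower in 51 of 57 (-1.83), with Ifit3 at 32.8 ± 22.04 CPM (SD, n = 4) in imiquimod-ear and 281 ± 117 CPM (SD, n = 3) in IL-23-ear (log2 fold change -3.10, SE 0.54, adjusted p = 0.00429). T cell genes were lower in 21 of 25 (-0.78), and Cd3e was at 90.8 ± 27 CPM (SD, n = 4) in imiquimod-ear and 163 ± 9.03 CPM (SD, n = 3) in IL-23-ear (log2 fold change -0.85, SE 0.22, adjusted p = 0.0225). For ribosomal protein genes none of 36 passed between imiquimod-ear and IL-23-ear with edgeR (median 0.01; 3 with an unadjusted p under 0.05, 1 with DESeq2 and 0 with limma-voom). Of 13 mitochondrially encoded genes, 4 were lower in imiquimod-ear and none higher (median -0.12). Over the control mean (log2), IL-23-ear 1, 2 and 3 were at 0.23, 0.36 and 0.30 in the ribosomal list. In the mitochondrial list they were at 0.33, 0.33 and 0.31. The difference of IL-23-ear from control was not tested here. The 3 comparisons share the imiquimod-ear libraries, so their values are given side by side and not as independent evidence.

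**Figure D5:**
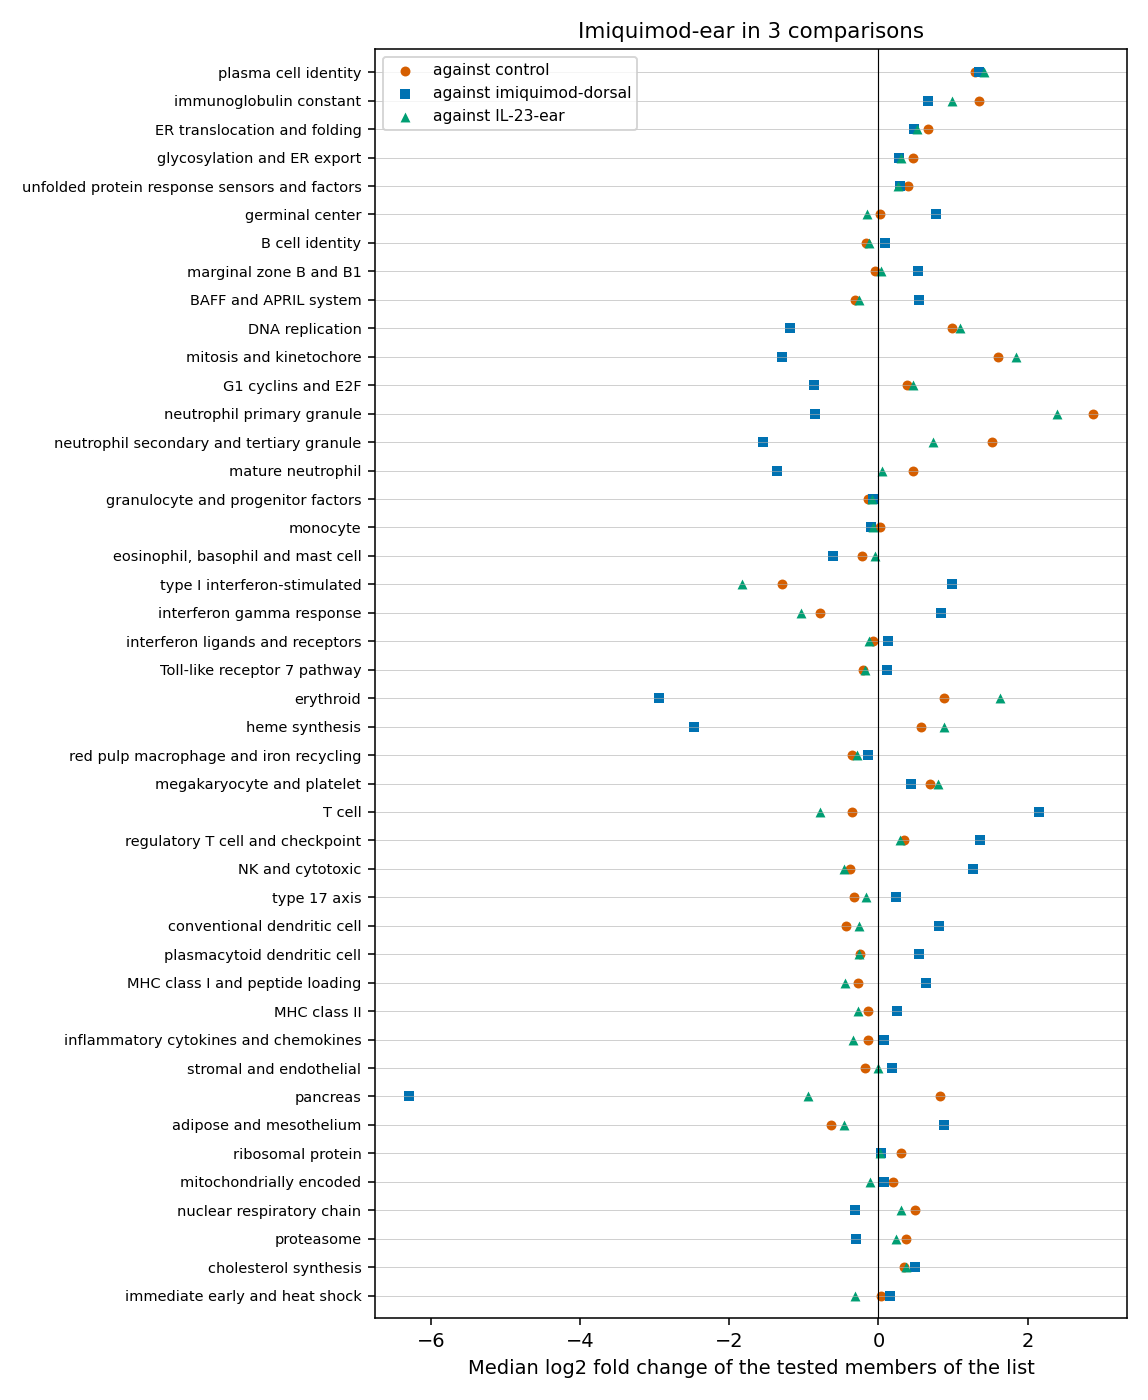
Median log2 fold change of the tested members of each list (x axis) for imiquimod-ear against control, against imiquimod-dorsal and against IL-23-ear, with 1 row per list. Type I interferon-stimulated genes lie at -1.29, 0.99 and -1.83, erythroid genes at 0.88, -2.95 and 1.63, and plasma cell genes at 1.29, 1.35 and 1.41.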

How the data were processed

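Poly(A) RNA of 14 whole spleens was sequenced in paired reads of 150 bases, per the labels' protocols. The authors deposited 1 table of whole-number counts per gene for all libraries. The submitters' processing notes name fastp 0.23.2, HISAT2 2.2.1, featureCounts 2.0.3, StringTie 2.2.1, DESeq2 1.38.3 and the build GRCm39, without their roles. The handling of strand and of reads with several matches was not stated in the labels.

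Of 22740 rows, 624 are assembled transcripts with no gene name (0.484 to 0.674% of counts) and were left out, which leaves 22116 genes, and 529 of these take their symbol from GENCODE vM39 (GRCm39), which also gave the positions. Genes were kept by edgeR's filter with a minimum count of 10. The counts of all 14 libraries were fitted together with edgeR 4.0.16 (TMM, robust quasi-likelihood F test, 10 residual degrees of freedom, R 4.3.3), the p-values were adjusted over all 15159 tested genes by Benjamini and Hochberg, and 0.05 was the threshold. The common biological coefficient of variation was 18.7%. DESeq2 1.42.0, limma-voom 3.58.1 and other alternatives were run on the same counts, each with its effect given at the end. List levels are means of log2 CPM with a prior count of 2.

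The comparison, the gene lists and the genes described were chosen with earlier results of these data known. Single genes are the 12 largest rises and falls that were kept with each control and imiquimod-ear library left out, at or above 1 in mean log2 CPM and without overlap of the groups, predicted genes and variable segments aside, then from each list the 3 smallest adjusted p under the same rule and the first 4 genes, and Tlr7, Jchain, S100a8, Mki67, Ifit3 and Cd3e. Not all of the last kinds are printed, and some genes are not reported here. Other members that a count of calls turns on were named after their values were seen.

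Depth was 28354674 to 37402120 counts per library in the groups compared. A count of 0 allows up to 3 counts, which covers counting error only. No label says that samples were processed apart, no 2 control or 2 imiquimod-ear libraries agreed within sampling noise, and the p-values measure the spread between these samples.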

Additional observations from a re-analysis of the deposited data

Results flagged for a closer look

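In a group of 4 libraries, a value was singled out where its gap to the nearest other, over the range of the group, exceeded Dixon's critical value for 4 values. This was applied to 44 list levels and to each gene named here on the log2 CPM scale, 169 sets of 4 values in all. Of these, 13 exceeded it, where chance alone marks about 1 group in 20. Imiquimod-ear 3 stood below the other 3 in the later granule list, at 0.0442 over the control mean (log2), and in Ltf (15.3 CPM), S100a8 (16.9 CPM) and Fcnb (3.25 CPM). It also stood above the others in the type 17 list, at -0.186. Imiquimod-ear 5 stood below the others in the G1 cyclin and E2F list (0.117), in Mcm2 (99.2 CPM), Pcna (213 CPM) and Il6 (0.0754 CPM), and above them in the stromal list (0.0428) and in Ifnar1 (95.5 CPM). Imiquimod-ear 4 stood above the others in the pancreas list (1.74) and below them in Bcl6 (44.8 CPM).

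For 13 named genes the difference between imiquimod-ear and imiquimod-dorsal passed edgeR's quasi-likelihood test. It was larger than, and in the same direction as, that between imiquimod-ear and control. The fitted dorsal level thus lay past the control, seen from the ear level, but in several genes by little. For Hsp90b1, Hspa5, Edem2 and Sdc1 both log2 fold changes were nearly equal, so the dorsal level lay close to the control. For Jchain and Nuggc they differed by less than their SE. The calls of Hspa5 and Iglc3 against control were lost with single libraries left out. Both comparisons share the imiquimod-ear libraries, and the difference of imiquimod-dorsal from control was not tested here. The log2 fold changes of imiquimod-ear against imiquimod-dorsal were 1.64 for Jchain, 1.36 for Sdc1, 1.70 for Prdm1, 1.86 for Irf4 and 0.63 for Iglc3, all genes of antibody-secreting cells. In the endoplasmic reticulum they were 1.37 for Hsp90b1, 0.61 for Hspa5 and 0.95 for Edem2. They were 3.06 for Nuggc, 1.97 for Cxcr3, 2.45 for Epcam, 1.88 for Tigit and -0.43 for Irak2.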

How the results depend on the processing

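Counts of calls for imiquimod-ear against control moved with the libraries and the test used. With only the 2 groups compared, 666 genes rose and 380 fell, and 637 were higher and 570 lower than in IL-23-ear. DESeq2 called 1648 falls against control. Other scalings, limma-voom, leaving out haemoglobin and immunoglobulin genes and testing without the filter on low counts kept each count within 1.5 times. Of the 2161 rises, 2125 were also called by DESeq2, 2004 by limma-voom and 1926 with RLE size factors. With 1 library left out, the rises against control ranged from 717 to 2725 and the falls from 373 to 2251. The genes higher than in imiquimod-dorsal ranged from 2980 to 3667 and the lower ones from 3229 to 3575. Those higher than in IL-23-ear ranged from 646 to 2402 and the lower ones from 471 to 2058. The cause was not tested.

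Replicate numbers are labels without a stated pairing. Deviations of same-numbered imiquimod-ear and control libraries correlated at -0.029 for number 4 and -0.241 for number 5. Those of all same-numbered libraries correlated at -0.241 to 0.183, and those of differently numbered libraries at -0.231 to 0.218. These values cannot tell whether libraries of the same number shared a step of handling. With the replicate number as a block, 240 genes rose and 71 fell against control, and 767 were higher and 494 lower than in IL-23-ear. Against control, 12 of 20 plasma cell, 6 of 10 primary granule, 8 of 36 folding, 7 of 36 mitosis and 0 of 36 replication genes then rose. Of 57 type I interferon-stimulated genes, 12 then fell.

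No alternative turned the direction of any of the 104 named genes that passed. DESeq2 and RLE size factors lost none of these calls, the fit of only the 2 groups 15, limma-voom 5, the replicate block 55, and leaving out 1 library 1 to 19, the most without control 4. Of the 44 list medians, 5 changed sign under at least 1 alternative, all of them within 0.05 of 0 except that of the pancreas list, which was 0.83 and became -0.59 without imiquimod-ear 4. Il6, under 1 CPM in each of the 7 libraries, rests on few counts, and a difference in it was not detectable at this depth.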

Other observations

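Variable segments of antibody genes rose beside the constant regions. Of 90 tested heavy chain variable segments 75 rose (median log2 fold change 1.57), of 98 kappa segments 77 (median 1.42) and of 3 lambda segments 3 (median 0.97), and none of the segments of these 3 kinds fell, by the adjusted p of edgeR's quasi-likelihood test. The kappa segments summed to 2448, 2526 and 2198 CPM in control 2, 4 and 5 and to 6481, 7409, 4862 and 4941 CPM in imiquimod-ear 1, 3, 4 and 5, so all 4 treated spleens were above the controls. Against imiquimod-dorsal, 54 heavy chain and 78 kappa segments were higher in imiquimod-ear, and against IL-23-ear 72 and 74 were. Of 99 T cell receptor segments none rose and 2 fell against control, 87 were higher than in imiquimod-dorsal (median 2.14) and 13 were lower than in IL-23-ear. Segments of a family resemble each other, and the reference segments are those of another strain, so the split between segments is uncertain.

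The following genes come from the next 12 rises and 12 falls in order of fold change that belong to no list, and were chosen among them after their values were seen. Bhlha15, the factor MIST1 that enlarges the secretory apparatus, was at 3.33, 3.97 and 4.69 CPM in the controls and 24.1, 32.1, 19.9 and 14.9 CPM in imiquimod-ear (log2 fold change 2.51, SE 0.26, adjusted p = 0.000511). It was also higher than in imiquimod-dorsal by 2.23 and than in IL-23-ear by 2.26. Trabd2b, which inhibits Wnt ligands, rose by 2.64, Epcam, an adhesion molecule of epithelia and of some B cells, by 1.89, and Ifnlr1, the receptor subunit of type III interferon, by 1.88. Pclaf, which binds the sliding clamp, Cep55 of abscission, Ncapg of condensin and Hmmr of the spindle rose by 1.98, 1.88, 1.85 and 1.80. Among the falls, Slfn1 was at 130, 191 and 133 CPM in the controls and 48.2, 34.7, 49.7 and 70.0 CPM in imiquimod-ear (log2 fold change -1.58, SE 0.21, adjusted p = 0.00162), and Ifi214, Ifi211 and Mndal of the Ifi200 family had log2 fold changes of -1.45, -1.29 and -1.29. Fam107a, an actin-binding protein, had 13.0, 17.1 and 12.4 CPM in the controls and 3.54, 7.70, 5.66 and 5.53 CPM in imiquimod-ear (log2 fold change -1.34, SE 0.24, adjusted p = 0.00372).

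A run of neighbouring genes of chromosome 5 had most of its counts after ear application, and was singled out after its values were seen. From 10291709 to 11972788 in GRCm39 lie Speer1 and 12 other annotated protein-coding genes, which are close copies of each other. Of these 13, 11 passed the filter on low counts, and 10 of the 11 had at most 7 counts in each library outside imiquimod-ear. These 10 passed through imiquimod-ear alone, so calls in the region are not counted here. Over all 13, the counts summed to 26, 11 and 19 in control 2, 4 and 5 and to 480, 741, 542 and 230 in imiquimod-ear 1, 3, 4 and 5. The sums were 53, 2, 19 and 6 in imiquimod-dorsal 2, 3, 4 and 5 and 4, 23 and 33 in IL-23-ear 1, 2 and 3, so no other library reached the lowest of the imiquimod-ear group. Speer1 itself had no count in any of the 10 other libraries and 14, 48, 41 and 14 counts in imiquimod-ear 1, 3, 4 and 5.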
